A study of Mus musculus with 9 samples.

Results

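The genes described here are the alcohol dehydrogenases (Adh), aldehyde dehydrogenases (Aldh), aldo-keto reductases of the Akr1 group, the Dhrs dehydrogenases/reductases and the hydroxysteroid dehydrogenases (Hsd) of the mouse liver. The families were picked with earlier results of these data known, and their members by symbol, as the probe sets that carry 1 gene symbol beginning with Adh and a digit, Aldh, Akr1, Dhrs or Hsd and a digit, with Aldh1a1, Aldh1a2 and Hsd17b4 left out of the rule. A probe set is a group of array probes read as 1 value. This gave 73 probe sets of 70 genes, out of 21780 probe sets of 19935 genes with 1 symbol. The families held 7 Adh genes, 19 Aldh genes, 14 Akr1 genes, 12 Dhrs genes and 18 Hsd genes. By name the rule also took Adh6-ps1, a pseudogene, and Dhrs13os, an antisense transcript. A further 3 probe sets carry a member's name beside other symbols (Aldh3b2 with Aldh3b3, and Hsd3b4 with Hsd3b5) and were not counted.

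The arrays held liver RNA of 9 female mice on a C57BL/6J background, 15 to 16 months old, with 1 mouse per array and 3 mice per group. WTAL mice were wild type and ate ad libitum. WTCR mice were wild type and underwent short-term calorie restriction (CR), a stepwise cut of their daily intake over several weeks. Dgat1-/-AL mice ate ad libitum and lacked Dgat1, which encodes an enzyme of triglyceride synthesis. Their deletion is present in every tissue, not only in the liver. All groups were kept in a pathogen-free barrier facility. The sample labels name the same PicoLab chow for all of them, while the study's methods call the food of the restricted mice a CR diet. The study set both leaner groups against WTAL to see which liver mRNAs each of them altered.

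Alcohol dehydrogenases oxidise alcohols such as ethanol and retinol to aldehydes, and aldehyde dehydrogenases take the aldehydes on to acids. Aldo-keto reductases and the short-chain enzymes of the Dhrs and Hsd groups interconvert hydroxyl and carbonyl groups on steroids, retinoids, sugars and sterols, with NAD or NADP as the partner. In the liver they clear ethanol and lipid aldehydes, switch sex steroids and glucocorticoids between active and inactive forms, and take part in the conversion of cholesterol to bile acids.

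Values are log2 signals, and differences between groups are log2 fold changes with their SE from limma. A member is called higher or lower where the fold exceeded 1.3 at an unadjusted limma p under 0.05, which is the rule the study used, and the adjusted p is the Benjamini-Hochberg value over all 28815 probe sets. Precision is limited by the small number of arrays. Dgat1 itself had a log2 signal of 7.86 in WTAL replicate 1 and 8.05 in replicate 3, whereas the array labelled WTAL replicate 2 gave 5.67. It ran from 8.56 to 8.89 in WTCR and from 5.39 to 6.14 in Dgat1-/-AL. The array labelled WTAL replicate 2 thus lies among the Dgat1-/-AL arrays for this gene and goes against its label. The counts of called members against WTAL are therefore also given without it. Single calls that it changes are given for the genes whose calls were followed through every setting. The share of all probe sets called without this array was not counted. Dgat1-/-AL replicate 1 stood apart from all other arrays on the second principal component (score -42.1, against -15.9 to 15.3).

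In WTCR livers 7 members were lower and 5 higher than in WTAL, 12 of 73 or 16.4%, where 8.06% of all 28815 probe sets were called (4.25% higher and 3.81% lower). Of the 73, 51 had a mean signal above the median of all probe sets, and 11 of these were called (21.6%, against 14% of all probe sets above that median). The enzymes lower in WTCR were Hsd3b7 of bile acid synthesis, the 17beta-hydroxysteroid dehydrogenases Hsd17b2 and Hsd17b6, the retinol-active Dhrs9, the alcohol dehydrogenase Adh4, the pseudogene Adh6-ps1 and Akr1e1. Those higher were Aldh1l1 of folate metabolism, Aldh16a1, Hsd17b10, Hsd17b11 and Akr1c18. At an adjusted p under 0.05, 4 members remained and all were lower (Hsd17b2, Hsd3b7, Dhrs9 and Adh6-ps1), where 3.03% of all probe sets passed that threshold and 1.41% were lower. When the array labelled WTAL replicate 2 was omitted the counts were 3 higher and 8 lower, with Hsd17b11 and Akr1c18 no longer called and Hsd17b7 now among the lower.

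In Dgat1-/-AL livers 1 member was lower, Hsd17b7, and 0 were higher, where 1.23% of all probe sets were called (0.465% higher and 0.76% lower). No member and 0% of all probe sets reached an adjusted p under 0.05 in limma. Hsd17b7 was also the only member with an unadjusted p under 0.05 at any fold. The share of all probe sets at that threshold is not given here. With the array labelled WTAL replicate 2 omitted, 1 member was higher and 1 lower, again Hsd17b7. The higher member was not among the genes whose calls were followed through every setting and is not named here. All 3 WTCR arrays lay outside the range of the WTAL arrays for 18 members, above it for 8 (11.2% of all probe sets) and below it for 10 (8.44%). For Dgat1-/-AL this was so for 2 members above (Hsd17b11 and Hsd17b12, 3.16%) and 2 below (Aldh8a1 and Hsd17b7, 3.86%).

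**Figure D1:**
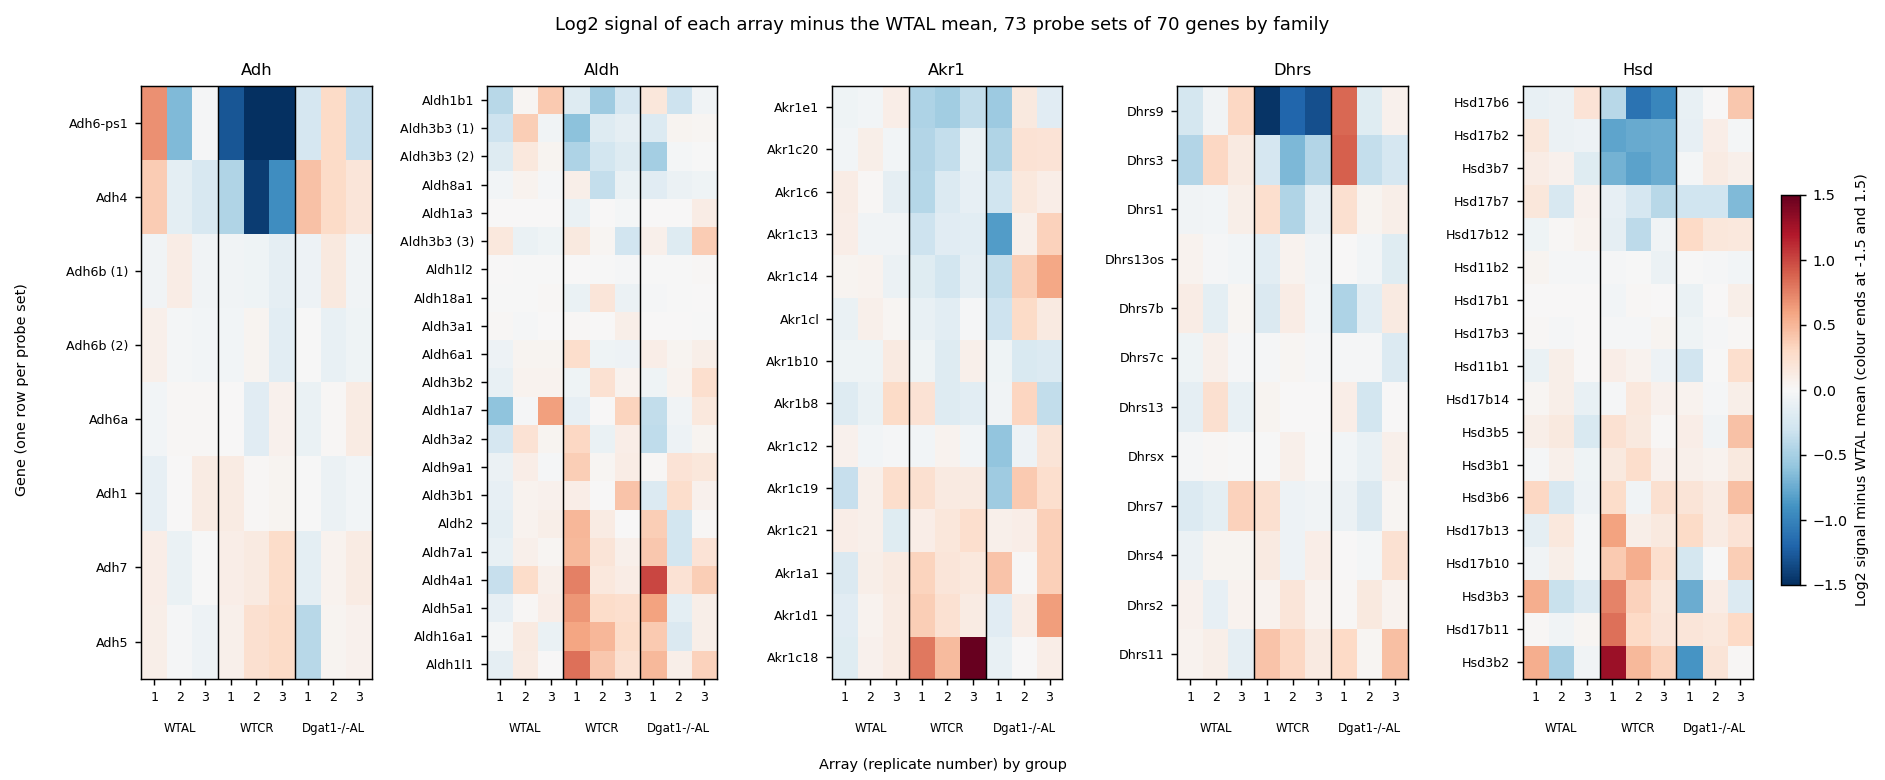
Log2 signal of each of the 9 arrays (columns, by group and replicate number) minus the mean of the 3 WTAL arrays, for the 73 probe sets (rows), one panel per family, ordered by the difference between WTCR and WTAL. Blue rows at the top in WTCR are the lowered members such as Adh6-ps1, Adh4 and Dhrs9, and most other rows are pale in every group.

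Hsd3b7 encodes the enzyme that oxidises the 3beta-hydroxyl group of the sterol ring in an early step of bile acid synthesis. Its log2 signal was 11.31, 11.25 and 11.01 in WTAL replicates 1 to 3 and 10.48, 10.39 and 10.44 in WTCR. It was 11.16, 11.31 and 11.27 in Dgat1-/-AL. All WTCR arrays lay below all 6 arrays of mice fed ad libitum, and the 3 WTCR values spanned less than the WTAL values. The fall in WTCR was 1.68-fold (-0.75 ± 0.09, SE, n = 3 mice per group, limma adjusted p = 0.00854). In Dgat1-/-AL the difference from WTAL was 0.06, with a 95% interval of -0.14 to 0.26.

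Hsd17b2 encodes the enzyme that oxidises estradiol and testosterone to their less active ketones. Its log2 signal was 11.51, 11.25 and 11.27 in WTAL, 10.55, 10.59 and 10.60 in WTCR and 11.22, 11.45 and 11.31 in Dgat1-/-AL. The WTCR arrays again lay below all others. The gene fell 1.70-fold in WTCR (-0.76 ± 0.09, limma adjusted p = 0.00854) and differed by -0.02 in Dgat1-/-AL (95% interval -0.22 to 0.19). Hsd17b6, which oxidises androgen diols, was 11.92, 11.94 and 12.23 in WTAL and 11.61, 10.92 and 11.05 in WTCR. In Dgat1-/-AL it was 11.92, 12.03 and 12.43. WTCR replicate 1 came nearest to the WTAL range without reaching it. The call in WTCR was a 1.78-fold fall (-0.83 ± 0.20) with a limma adjusted p of 0.0659. All 3 of these calls held without any 1 of the 9 arrays.

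Of the other 17beta-hydroxysteroid dehydrogenases, Hsd17b10 and Hsd17b11 were higher in WTCR. Hsd17b10, a mitochondrial enzyme of isoleucine breakdown that is also a subunit of mitochondrial RNase P, was 10.93, 11.07 and 10.95 in WTAL and 11.37, 11.53 and 11.23 in WTCR. Its Dgat1-/-AL values of 10.73, 10.98 and 11.36 spanned most of that range. The rise was 1.32-fold (0.40 ± 0.15, limma adjusted p = 0.242) and it was lost when WTAL replicate 1 or 3, or WTCR replicate 1 or 2, was omitted, and with quantile normalization repeated (0.27). Hsd17b11, a protein of lipid droplets, was 9.41, 9.34 and 9.42 in WTAL and 10.22, 9.69 and 9.57 in WTCR, a 1.35-fold rise (0.44 ± 0.15, limma adjusted p = 0.188). WTCR replicate 1 was the highest array by far, and without it the difference was 0.24 and the call ended. The call also ended without the array labelled WTAL replicate 2 (0.41). Hsd17b13, the neighbouring gene on chromosome 5 and likewise a lipid droplet protein, gave 0.28 in WTCR (95% interval -0.04 to 0.59) and 0.20 in Dgat1-/-AL (-0.12 to 0.52) and was not called.

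Hsd17b7 encodes a 3-ketoreductase of cholesterol synthesis. It was 10.18, 9.78 and 10.08 in WTAL, 9.71, 9.72 and 9.36 in Dgat1-/-AL and 9.90, 9.76 and 9.60 in WTCR. All Dgat1-/-AL arrays were below all WTAL arrays, by the narrowest margin against the array labelled WTAL replicate 2. The difference in Dgat1-/-AL was -0.42 ± 0.14 (1.34-fold lower, limma adjusted p = 0.972). The call held without the array labelled WTAL replicate 2 (-0.54) and ended without WTAL replicate 1 (-0.34) or Dgat1-/-AL replicate 3 (-0.30). In WTCR the difference was -0.26 (95% interval -0.58 to 0.05), not called with all arrays and called without the array labelled WTAL replicate 2 (-0.38).

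Hsd11b1, the reductase that regenerates active glucocorticoid in the liver, had the highest mean signal of the Hsd probe sets. It differed by 0.02 in WTCR (95% interval -0.27 to 0.31) and by -0.02 in Dgat1-/-AL (-0.31 to 0.27). Its kidney counterpart Hsd11b2, which inactivates glucocorticoid, ran from 5.45 to 5.58 over the 9 arrays and was called in neither group. Hsd3b5, known from male mouse liver, ran from 3.37 to 4.04 and was not called either. In all, 3 of the 18 Hsd members were lower and 2 higher in WTCR, and 1 was lower in Dgat1-/-AL. The shares of all probe sets with these calls were 3.81%, 4.25% and 0.76%, in the same order.

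**Figure D2:**
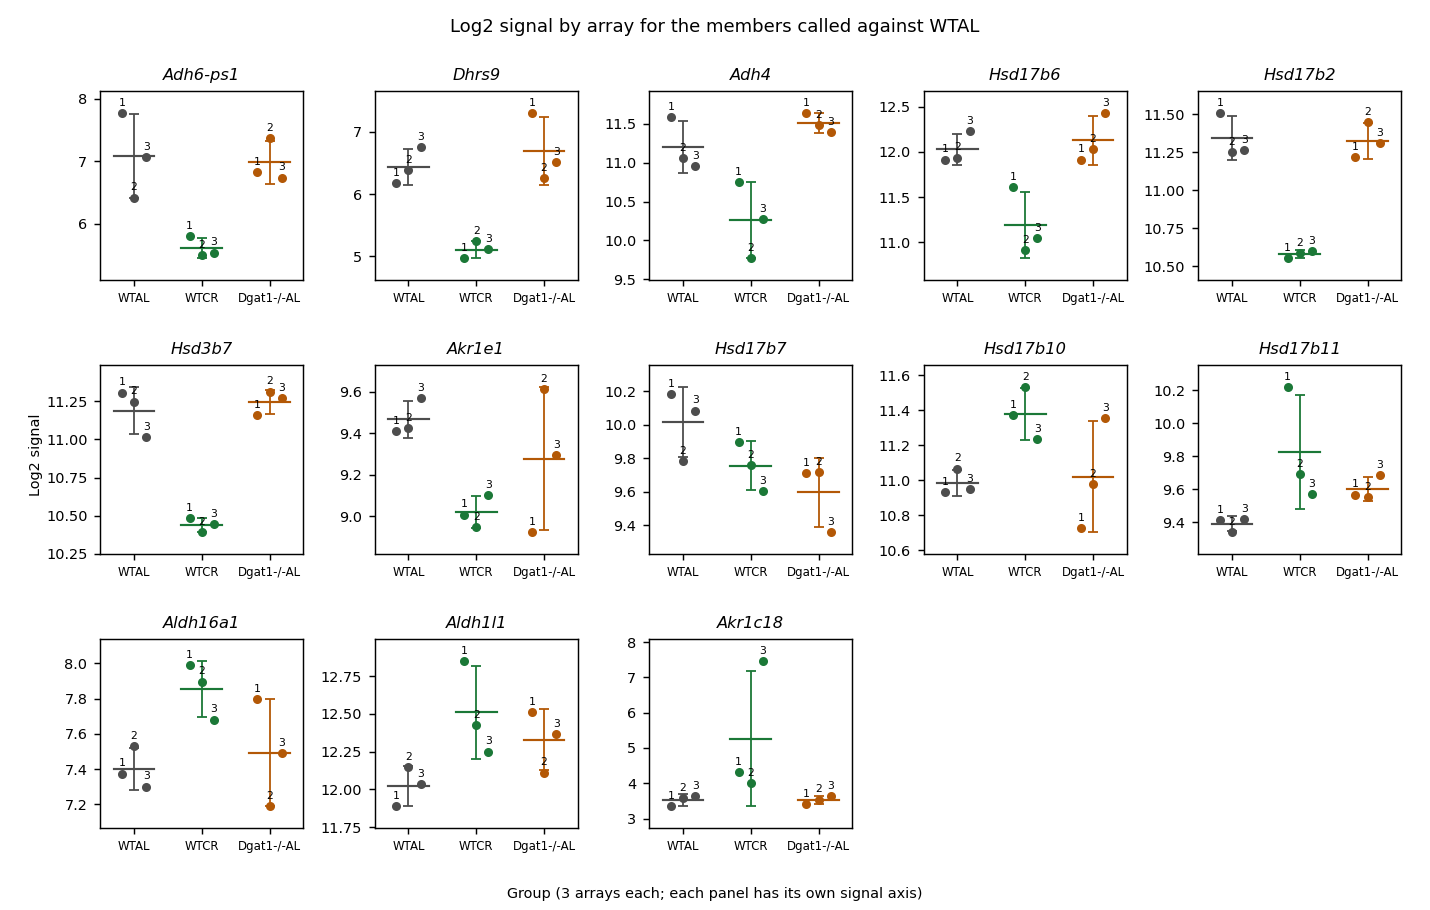
Log2 signal (y axis, a separate scale in each panel) of each array by group (x axis) for the 13 members called in WTCR or Dgat1-/-AL against WTAL, with the replicate number above each point, the group mean as a horizontal line and the SD as an error bar. In the panels of Hsd3b7, Hsd17b2, Dhrs9, Adh4, Hsd17b6 and Adh6-ps1 the 3 WTCR arrays lie below all 6 others, and in the Akr1c18 panel WTCR replicate 3 lies at 7.46, far from every other array.

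The stretches ahead of lowered members were read to show what sequence stands at their starts. RefSeq promoters of build GRCm38.p6, 250 bases before the first transcribed base and 50 from it on, were held for 55 of the 70 member genes. They covered 10 of the 12 members called in WTCR. Each was searched on both strands for an E-box (CACGTG), a D-box (TTANGTAA), a nuclear receptor hexamer (AGGTCA), an antioxidant response element (TGACNNNGC), a sterol response element (TCACNCCAC), a TATA box (TATAAA) and a CCAAT box (CCAAT). None of these motifs contains another, but matches may overlap. Shown are Adh4 (chr3:138415247-138415546, plus strand), Dhrs9 (chr2:69380212-69380511, plus strand), Hsd17b6 (chr10:128007459-128007758, minus strand) and Hsd3b7 (chr7:127800359-127800658, plus strand), all lower in WTCR, and Hsd17b7 (chr1:169969156-169969455, minus strand), lower in Dgat1-/-AL. Each runs 5′ to 3′ on the gene's strand, and capitals mark every match to the motifs in either orientation.
Adh4: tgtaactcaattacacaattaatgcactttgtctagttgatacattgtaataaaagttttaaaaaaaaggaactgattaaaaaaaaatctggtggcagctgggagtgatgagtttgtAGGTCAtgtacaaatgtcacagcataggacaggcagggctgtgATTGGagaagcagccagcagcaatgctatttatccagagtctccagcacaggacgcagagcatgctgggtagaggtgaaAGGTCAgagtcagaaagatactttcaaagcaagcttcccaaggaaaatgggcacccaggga
Dhrs9: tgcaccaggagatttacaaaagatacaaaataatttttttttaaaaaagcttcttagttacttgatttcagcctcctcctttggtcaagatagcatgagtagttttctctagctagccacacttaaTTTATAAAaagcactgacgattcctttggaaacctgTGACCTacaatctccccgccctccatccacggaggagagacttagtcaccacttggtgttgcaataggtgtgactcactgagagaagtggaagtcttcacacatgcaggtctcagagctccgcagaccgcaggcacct
Hsd17b6: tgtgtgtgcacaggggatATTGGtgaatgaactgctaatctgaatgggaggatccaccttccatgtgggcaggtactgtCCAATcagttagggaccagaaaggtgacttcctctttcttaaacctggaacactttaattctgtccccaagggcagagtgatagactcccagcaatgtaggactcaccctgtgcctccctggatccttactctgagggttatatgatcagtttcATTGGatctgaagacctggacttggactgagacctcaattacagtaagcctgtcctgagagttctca
Hsd3b7: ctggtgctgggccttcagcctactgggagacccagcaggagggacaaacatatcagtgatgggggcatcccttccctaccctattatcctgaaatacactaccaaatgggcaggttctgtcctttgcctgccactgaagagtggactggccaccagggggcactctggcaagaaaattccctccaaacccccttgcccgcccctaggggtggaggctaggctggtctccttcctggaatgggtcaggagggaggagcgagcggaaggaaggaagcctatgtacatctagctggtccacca
Hsd17b7: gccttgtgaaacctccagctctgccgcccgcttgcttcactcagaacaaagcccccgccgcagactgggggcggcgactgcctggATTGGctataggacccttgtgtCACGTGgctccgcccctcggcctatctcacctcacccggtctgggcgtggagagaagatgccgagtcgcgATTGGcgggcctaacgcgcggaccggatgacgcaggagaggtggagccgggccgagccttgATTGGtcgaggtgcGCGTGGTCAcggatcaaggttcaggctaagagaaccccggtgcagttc
With the first transcribed base counted as 0, Adh4 has hexamers from -133 to -128 and from -11 to -6 and Dhrs9 has one from -88 to -83 on the opposite strand. The hexamer is held by 16.3% of all 32851 promoter windows of this length. Adh4 also has a CCAAT box from -90 to -86 on the opposite strand. Dhrs9 also has overlapping TATA boxes on both strands, from -124 to -119 and from -122 to -117 (13.6% of all windows hold a TATA box). A second window of Hsd17b6, which overlaps the one shown, is not printed. Hsd17b6 holds CCAAT boxes (37.4% of all windows), Hsd17b7 holds CCAAT boxes, an antioxidant response element (12.4%) and an E-box from -143 to -138 (7.15%), and the Hsd3b7 window holds no match. The E-box, the D-box and the hexamer were in 5, 3 and 9 of the 61 member windows (8.2%, 4.92% and 14.8%, against 2.32% of all windows for the D-box). A match describes letters only.

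Against 3.81% of all probe sets called lower in WTCR, the alcohol dehydrogenases called were only Adh4 and the pseudogene Adh6-ps1, both lower. These lie next to each other on chromosome 3, in a run of adjacent genes that RefSeq orders as Adh7, Adh1, Adh6a, Adh6b, Adh6-ps1, Adh4 and Adh5. Adh4 encodes a class II enzyme that acts on retinol and larger alcohols. Its log2 signal was 11.59, 11.06 and 10.96 in WTAL, 10.75, 9.77 and 10.27 in WTCR and 11.64, 11.48 and 11.39 in Dgat1-/-AL. All WTCR arrays were lowest, with a spread between them of nearly 1 unit. The fall in WTCR was 1.91-fold (-0.94 ± 0.24, limma adjusted p = 0.0884), and in Dgat1-/-AL the difference was 0.30 (95% interval -0.25 to 0.86). Adh6-ps1 was 7.77, 6.42 and 7.06 in WTAL, 5.80, 5.50 and 5.54 in WTCR and 6.83, 7.37 and 6.74 in Dgat1-/-AL. It fell 2.77-fold in WTCR (-1.47 ± 0.31, limma adjusted p = 0.0428), by -1.80 without the array labelled WTAL replicate 2, which was the lowest of its group. Probes of a pseudogene can bind transcripts of its functional relatives, so the transcript behind this signal is uncertain.

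The rest of the cluster was not called. Adh1, the main ethanol-oxidising enzyme of mouse liver and the Adh probe set of highest mean signal, ran from 13.71 to 13.96 over the 9 arrays. It differed by 0.06 in WTCR (95% interval -0.11 to 0.23) and by -0.04 in Dgat1-/-AL (-0.21 to 0.13). The WTCR interval for Adh1 ended well short of a 1.3-fold change, while that for Adh4, a few genes away, began at -1.49 and ended at -0.38. Adh5, which clears formaldehyde bound to glutathione, differed by 0.20 in WTCR (-0.09 to 0.50), and Adh7, the retinol-active enzyme of the stomach lining, by 0.17 (-0.04 to 0.38). The other probe sets, 1 of Adh6a and 2 of Adh6b, ran from 3.52 to 4.21 in all arrays.

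Of the 21 Aldh probe sets 2 rose and 0 fell in WTCR, a share near the 8.06% called among all probe sets, and Dgat1-/-AL gave 0 calls (1.23% of all). Aldh1l1, the Aldh probe set of highest mean signal, encodes the enzyme that oxidises 10-formyltetrahydrofolate. It was 11.89, 12.15 and 12.04 in WTAL, 12.85, 12.43 and 12.25 in WTCR and 12.51, 12.11 and 12.37 in Dgat1-/-AL. The rise in WTCR was 1.40-fold (0.48 ± 0.16, limma adjusted p = 0.181), and the difference in Dgat1-/-AL was 0.30 (95% interval -0.06 to 0.67). Aldh16a1 was 7.37, 7.53 and 7.30 in WTAL and 7.99, 7.90 and 7.68 in WTCR, a 1.37-fold rise (0.45 ± 0.15, limma adjusted p = 0.180). WTCR replicate 1 was the highest WTCR array for both genes, and both calls ended without it. The Aldh1l1 call also ended without WTAL replicate 1 and with the quantile normalization repeated (0.31), and the Aldh16a1 call without WTAL replicate 3.

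Aldh2, the mitochondrial enzyme that removes acetaldehyde after ethanol is oxidised, was 11.98, 12.17 and 12.20 in WTAL, 12.61, 12.24 and 12.12 in WTCR and 12.49, 11.84 and 12.14 in Dgat1-/-AL. The groups overlapped, and the WTCR difference was 0.21 (95% interval -0.19 to 0.61). Aldh3a2, the fatty aldehyde dehydrogenase, gave 0.10 in WTCR (-0.26 to 0.46) and -0.14 in Dgat1-/-AL (-0.50 to 0.22). Among the 9 members that act in amino acid or folate pathways, Aldh1l1 was the single call. The median log2 fold change of these 9 was 0.17 in WTCR and 0.11 in Dgat1-/-AL, beside medians of 0.0023 and -0.0023 over all probe sets. Over all probe sets above the median signal, as 7 of the 9 were, the medians were 0.026 and 0.004. The largest Aldh difference in Dgat1-/-AL was 0.53 ± 0.25 for Aldh4a1, of proline breakdown, a gene picked out after its values were seen, and Dgat1-/-AL replicate 1 was its highest array at 10.84. It was not called.

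Of the 14 Akr1 genes, Akr1c18 was higher and Akr1e1 lower in WTCR (4.25% of all probe sets were higher and 3.81% lower). Akr1c18 encodes the 20alpha-hydroxysteroid dehydrogenase that inactivates progesterone, best known from the ovary. Its log2 signal was 3.35, 3.59 and 3.65 in WTAL, 3.41, 3.54 and 3.63 in Dgat1-/-AL and 4.32, 3.999 and 7.46 in WTCR. WTCR replicate 3 was thus far above all other arrays, while WTCR replicates 1 and 2 were above all 6 arrays of mice fed ad libitum by less. The difference of 1.74 ± 0.76 (limma adjusted p = 0.329) rests mainly on that mouse, and without it the difference was 0.63 and still called. The call ended without any 1 of the WTAL or Dgat1-/-AL arrays, and with the WTAL and WTCR arrays alone. Akr1e1, a reductase of anhydrofructose, was 9.41, 9.43 and 9.57 in WTAL, 9.01, 8.95 and 9.10 in WTCR and 8.92, 9.61 and 9.30 in Dgat1-/-AL. It was 1.36-fold lower in WTCR (-0.45 ± 0.15, limma adjusted p = 0.188), which was no longer called once WTAL replicate 3 or WTCR replicate 2 was left out.

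Akr1c6, a 17beta-hydroxysteroid dehydrogenase of mouse liver and the Akr1 probe set of highest mean signal, was 12.30, 12.21 and 12.06 in WTAL, 11.76, 11.98 and 12.07 in WTCR and 11.89, 12.35 and 12.29 in Dgat1-/-AL. The WTCR and WTAL groups overlapped by a narrow margin and the difference was -0.25 (95% interval -0.56 to 0.06). Akr1d1, the 5beta-reductase of bile acid and steroid metabolism, gave 0.24 in WTCR (-0.18 to 0.66) and 0.19 in Dgat1-/-AL (-0.23 to 0.61). Neither was called with the values as deposited. With quantile normalization repeated, Akr1c6 was called lower in WTCR, at -0.42 against WTAL and -0.38 against Dgat1-/-AL, and the latter call was also made without Dgat1-/-AL replicate 1 (-0.38). The bright genes of the Akr1c cluster on chromosome 13 were then set side by side, a choice made after their values were seen. In all 6 of them (Akr1c6, Akr1c12, Akr1c13, Akr1c14, Akr1c19 and Akr1c20) Dgat1-/-AL replicate 1 was the lowest of its group. It lay 0.30 to 0.84 below the mean of the 3 WTAL arrays, with Akr1c13 farthest. Dgat1-/-AL replicates 2 and 3 lay between -0.07 and 0.58 from that mean. With all arrays and the deposited normalization, none of the 6 was called in any comparison. These genes are close in sequence, and probe sets of the cluster may share signal.

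**Figure D3:**
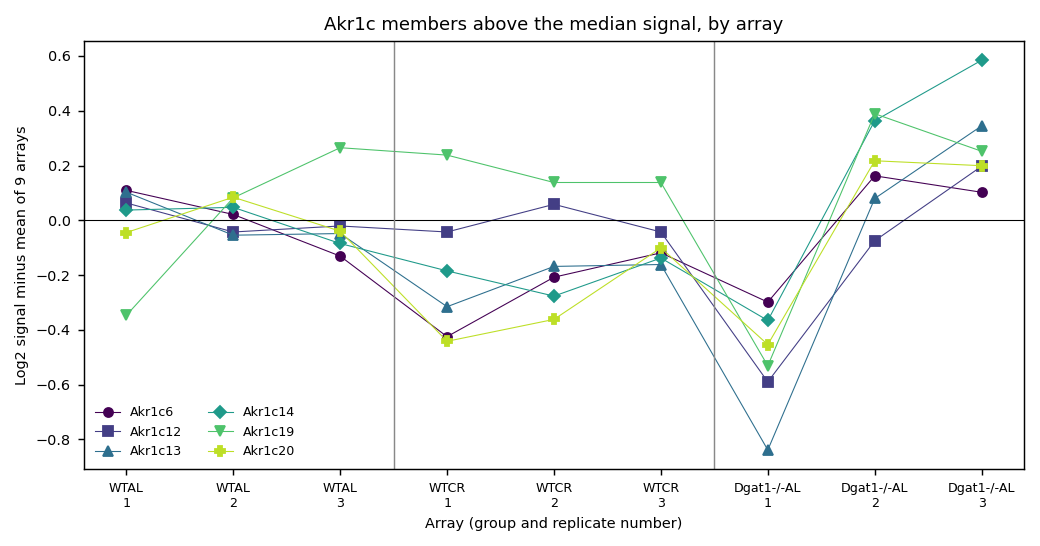
Log2 signal minus the mean of the 3 WTAL arrays (y axis) for the 6 Akr1c members above the median signal, by array (x axis). Lines join the values of 1 gene as a guide only. The axis label names the mean of 9 arrays, but the values plotted are relative to the WTAL mean. All 6 genes dip in Dgat1-/-AL replicate 1, to between -0.84 and -0.30.

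Of the 12 Dhrs genes, against 8.06% of all probe sets called in WTCR and 1.23% in Dgat1-/-AL, only Dhrs9 was called. It encodes a short-chain enzyme that acts on retinol and 3alpha-hydroxysteroids. Its log2 signal was 6.18, 6.38 and 6.75 in WTAL, 4.97, 5.25 and 5.11 in WTCR and 7.30, 6.25 and 6.51 in Dgat1-/-AL. The WTCR arrays lay at least 1 unit below every Dgat1-/-AL array and below every WTAL array. The fall in WTCR was 2.51-fold (-1.33 ± 0.25, limma adjusted p = 0.0316). Without each of the 9 arrays in turn it ran from -1.46 to -1.17 and stayed called. In Dgat1-/-AL the difference was 0.25 (95% interval -0.33 to 0.83).

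Dhrs3, a retinaldehyde reductase, was 9.56, 10.31 and 10.13 in WTAL, 9.75, 9.33 and 9.56 in WTCR and 10.90, 9.64 and 9.75 in Dgat1-/-AL. Dgat1-/-AL replicate 1 was the highest of all arrays, as it was for Dhrs9. The WTCR difference of -0.45 (95% interval -1.20 to 0.30) was not called, and it was called without Dgat1-/-AL replicate 1, which lowers the spread. Dhrs1, the Dhrs probe set of highest mean signal, differed by -0.11 in WTCR (-0.47 to 0.24) and 0.12 in Dgat1-/-AL (-0.23 to 0.48). The median absolute log2 fold change of the family in WTCR was 0.05, beside 0.09 over all probe sets and 0.17 over all members. It was 0.14 over all probe sets above the median signal, where 10 of the 12 Dhrs probe sets lie.

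**Figure D4:**
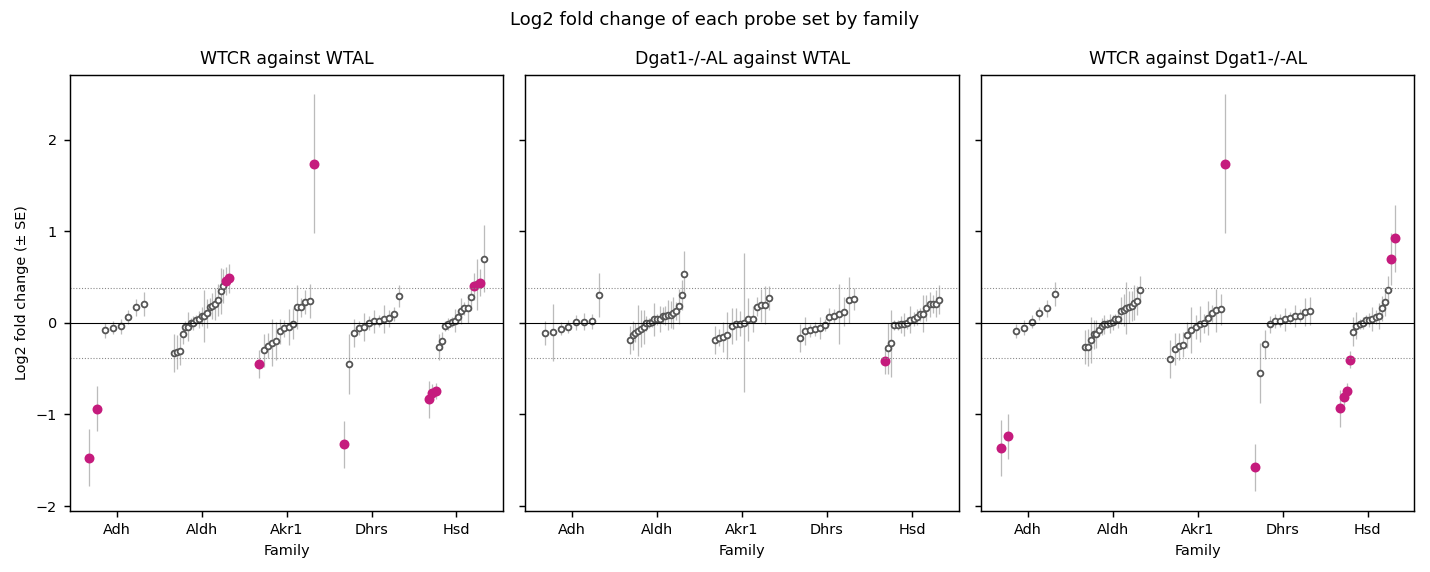
Log2 fold change (y axis, error bars SE) of each of the 73 probe sets by family (x axis) in the 3 comparisons, with called members as filled points, others open, and dotted lines at a 1.3-fold change. The lowered Adh, Dhrs and Hsd members stand apart from their families in both panels that involve WTCR, and in Dgat1-/-AL against WTAL a single Hsd member is filled.

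WTCR was also compared directly with Dgat1-/-AL, which shows where the members differ between the lean groups and does not use the WTAL arrays for the mean. Here 7 members were lower and 3 higher in WTCR, 10 of 73, where 8.59% of all probe sets were called (4.66% higher and 3.93% lower). An adjusted p under 0.05 was reached by 5 members, all lower, and by 3.06% of all probe sets. Hsd3b7 gave a log2 fold change of -0.81 ± 0.09 (limma adjusted p = 0.00585), Hsd17b2 -0.74 ± 0.09 (0.00819) and Dhrs9 -1.58 ± 0.25 (0.0181). Adh4 gave -1.24 ± 0.24 (limma adjusted p = 0.0349), Hsd17b6 -0.93 ± 0.20 (0.0451) and Adh6-ps1 -1.37 ± 0.31 (0.0544). These 6 calls held without any 1 array. This comparison and the one with WTAL share the WTCR arrays, so the second is not independent of the first. Hsd17b12, a reductase of fatty acid elongation, was the seventh, at -0.40 ± 0.10 (limma adjusted p = 0.0652), a call lost without WTCR replicate 2 (-0.30) or Dgat1-/-AL replicate 1 (-0.36). It was 10.09, 9.82 and 10.17 in WTCR, 10.52, 10.39 and 10.38 in Dgat1-/-AL and 10.15, 10.24 and 10.28 in WTAL, between the other groups. Hsd17b12 was named after its values were seen, as were the next 2 genes.

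Hsd3b2 and Hsd3b3, isoforms of the 3beta-hydroxysteroid dehydrogenase that forms ketosteroids, were higher in WTCR than in Dgat1-/-AL. Hsd3b2 was 7.72, 6.93 and 6.77 in WTCR and 5.56, 6.63 and 6.46 in Dgat1-/-AL, with 6.98, 5.95 and 6.39 in WTAL. Hsd3b3 was 9.94, 9.54 and 9.37 in WTCR and 8.46, 9.31 and 8.99 in Dgat1-/-AL, with 9.74, 8.86 and 8.99 in WTAL. In both genes WTCR replicate 1 was the highest array and Dgat1-/-AL replicate 1 the lowest, while the WTAL values overlapped both groups. The differences were 0.92 ± 0.37 and 0.70 ± 0.28 (limma adjusted p = 0.264 and 0.269). Over all probe sets, same-numbered WTCR and Dgat1-/-AL arrays deviated together from their group means, clearly so only for replicate 1 (r = 0.48). In these genes, however, replicate 1 deviated upward in WTCR and downward in Dgat1-/-AL. With the replicate number as a block, the unadjusted limma p became 0.0578 and 0.0562 and both calls ended. These genes are near copies of each other and their probes may share signal. Akr1c18 was the third, at 1.73 ± 0.76 (limma adjusted p = 0.312), and 0.63 and still called without WTCR replicate 3. It was no longer called when any 1 of the other groups' 6 arrays was left out, with the WTCR and Dgat1-/-AL arrays alone, or with a replicate block over those arrays.

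Enzymes of alcohol and aldehyde handling outside the 5 families were read from a list chosen with earlier results known. Of 24 measured, 5 were higher and 1 lower in WTCR (higher calls made up 4.25% and lower ones 3.81% of all probe sets). The median log2 fold change was 0.14 beside 0.00 over all probe sets. Over all probe sets above the median signal, as 22 of the 24 were, the median was 0.03 and 14% were called. The carbonyl reductase Cbr1 was higher by 0.87 ± 0.13 (limma adjusted p = 0.0147), and so were Gsta4 (1.17), a glutathione transferase for lipid aldehydes, the quinone reductase Nqo1 (0.70), the fructose kinase Khk (0.60) and Tkfc (0.79), which phosphorylates glyceraldehyde. The aldehyde oxidase Aox3 was lower (-0.69). In Dgat1-/-AL 1 of the 24 was called (1.23% of all probe sets), Acss2, which activates acetate (-0.65). The ethanol-oxidising Cyp2e1 and catalase (Cat) were not called against WTAL in either group.

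Of 22 other steroid genes, 2 were higher and 4 lower in WTCR, with a median of -0.02 (of all probe sets, 4.25% were higher and 3.81% lower, which is also the background for the next 2 lists). Cyp39a1, an oxysterol hydroxylase, rose by 1.52 ± 0.24 (limma adjusted p = 0.0176), and Nr3c2, the mineralocorticoid receptor, by 0.41. Lower were Cyp7b1, another oxysterol hydroxylase (-0.59), the sulfotransferase Sult2a8 (-1.29), the retinol dehydrogenase Rdh11 (-0.76) and the estrogen receptor Esr1 (-0.72). Rdh11 was also lower in Dgat1-/-AL (-0.50). Genes with male-biased liver expression were 5 higher and 3 lower of 12 in WTCR, with Cyp2d9 at 1.47 ± 0.14 and Cyp4a12a at 0.81 among the higher and C6 at -0.71 among the lower. Also called were Gstp1 (1.05), Selenbp2 (0.42), Cyp4a12b (0.77), Nudt7 (-0.87) and Cyp7b1. Cyp4a12a and Cyp4a12b had low mean signals, at percentiles 15.3 and 22.6 of all probe sets (limma adjusted p = 0.123 and 0.0681). Of 11 female-biased genes 0 were higher and 1 was lower in WTCR, A1bg. In Dgat1-/-AL 1 of the 12 male-biased genes was higher, Elovl3 (0.52, limma adjusted p = 0.972), and 0 were lower. None of the female-biased genes was called there. Over all probe sets 0.465% were higher and 0.76% lower in Dgat1-/-AL. Cyp7b1 stands in both the steroid and the male-biased lists.

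The liver label was borne out by hepatocyte markers, whose mean log2 signal was 13.63 to 13.76 in WTAL, 13.70 to 13.86 in WTCR and 13.71 to 13.87 in Dgat1-/-AL, with 0 of 4 called. Of these 4, Cps1 was higher by 0.37 in WTCR (limma adjusted p = 0.0891) and by 0.23 in Dgat1-/-AL, both below the 1.3-fold limit. Some markers of other cell types passed the rule. Over all probe sets 4.25% were called higher and 3.81% lower in WTCR, and 0.465% higher and 0.76% lower in Dgat1-/-AL. In WTCR 3 of 6 Kupffer cell markers (Clec4f, C1qa and Adgre1) were lower (mean signal per array 8.26 to 9.03, against 8.65 to 9.32 in WTAL), as were 3 of 3 B cell markers (Cd79a, Cd79b and Ms4a1, mean 4.07 to 4.29, against 4.70 to 4.996). The stellate markers Reln and Lrat (2 of 5) and the endothelial Clec4g (1 of 5) were lower too, with 0 of 4 bile duct and 0 of 4 T cell markers called. The mean of the stellate markers was 7.88 to 7.97 in WTCR and 8.07 to 8.17 in WTAL, and that of the endothelial markers 7.74 to 8.14 and 8.11 to 8.35. In Dgat1-/-AL the same 3 Kupffer cell markers were lower (mean 8.38 to 8.70), the endothelial Clec4g and Lyve1 were lower and Stab2 was higher. In bulk liver, fewer cells of a type and less RNA per cell cannot be told apart, and the part of these shifts in the members' values was not tested. The circadian clock genes had mean signals of 7.40 to 7.66 in WTCR against 6.78 to 6.98 in WTAL. In WTCR 10 of the 16 rose and 1 fell, and in Dgat1-/-AL the count was 0. Feeding time and the restriction itself cannot be told apart in WTCR.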

How the data were processed

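Liver RNA of 9 mice was hybridised to Affymetrix Mouse Gene 1.0 ST arrays. The authors processed the scans with RMA (background correction, quantile normalization and summary by probe set), and the deposited values are log2 signals. The version of RMA and the build behind the probe sets were not given in the sources used here. Gene symbols came from the platform annotation, which names 1 symbol for 21780 of 28815 probe sets, several for 1605 and none for 5430. All 73 member probe sets matched RefSeq (GRCm38.p6), which was also used for gene order and promoters.

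For every probe set limma 3.58.1 in R 4.3.3 estimated a mean for each group with a common, moderated variance from all 9 arrays and applied no filter on low signals. Self-tests on simulated data recovered the simulated fold changes. The genes named are the called members, the member of highest mean signal in each family and a list of textbook enzymes. Members and lists were chosen with earlier results of these data known. Where 1 gene has several probe sets, each is given. Labels name separate mice, with no link between same-numbered mice of different groups. Deviations from the group means over all probe sets correlated by 0.48, 0.25 and 0.21 for same-numbered WTCR and Dgat1-/-AL arrays, all over 0.1. The best differently numbered Dgat1-/-AL array gave -0.33, 0.18 and 0.18 with WTCR replicates 1 to 3. Same-numbered pairs with WTAL gave -0.32 to 0.05, and differently numbered ones up to 0.31. Only replicate 1 thus stood clearly apart, and whether the numbers pair WTCR and Dgat1-/-AL is not settled. The replicate block was kept as an alternative. Alternatives tried were leaving out each array, the replicate block, only the arrays compared, array medians subtracted, quantile normalization repeated, probe sets above the median signal, an intensity trend, the adjusted p, and 1 probe set per gene.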

Additional observations from a re-analysis of the deposited data

How the results depend on the processing

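Leaving out 1 array at a time gave 1 to 5 members higher (5 with all arrays) and 6 to 10 lower (7) in WTCR than in WTAL, 0 to 3 higher (0) and 0 to 1 lower (1) in Dgat1-/-AL than in WTAL, and 1 to 5 higher (3) and 6 to 11 lower (7) in WTCR than in Dgat1-/-AL. The fewest higher in WTCR, 1, came without WTCR replicate 1, and 2 were left without WTAL replicate 3. The 3 in Dgat1-/-AL came without Dgat1-/-AL replicate 2, and the 11 without Dgat1-/-AL replicate 1. The share of all probe sets called was not counted without each array, so a changed count may not be particular to the members. Between WTCR and Dgat1-/-AL, the higher count was 5 without WTCR replicate 3 and 1 without WTAL replicate 3 or WTCR replicate 1. At an adjusted p under 0.05 the counts became 0 higher and 4 lower in WTCR, 0 lower in Dgat1-/-AL, and 0 higher in WTCR than in Dgat1-/-AL. With quantile normalization repeated, 3 were higher and 9 lower in WTCR than in WTAL. With the replicate block, members higher in WTCR than in Dgat1-/-AL went from 3 to 1, and to 0 in a block over the WTCR and Dgat1-/-AL arrays alone, chosen after seeing the data, which also left 8 lower. With WTAL, whose numbers do not pair, the block changed no call of a member. The other settings at the same rule left these counts within 1.5 times. Of 23 called pairs of a named gene and a comparison, 12 kept their call without any 1 array and 17 under every other setting at the rule. No called difference changed sign. The causes were not tested.

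With 3 mice per group and 2 uncertain arrays (the array labelled WTAL replicate 2 and Dgat1-/-AL replicate 1), a call near the threshold can turn on 1 mouse. No depth or detection value stands beside these signals, so a low signal gives no level.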

Other observations

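The members' profiles were also set beside all other genes with 1 symbol, as a description over the 9 arrays, which share their groups and their normalization. Akr1c18 was most like Efcab8 (Pearson r = 0.98), Ccne1, which encodes cyclin E1 (0.98), E230001N04Rik (0.98), Fam98b (0.98) and Ctsr (0.97), genes that share the high value of WTCR replicate 3. Dhrs9 was most like Irf5 (0.98), an interferon regulatory factor, Slc39a4 (0.98) and Slc30a10 (0.98), carriers of zinc and manganese, Slc25a45 (0.98) and Cnpy4 (0.98). Adh6-ps1 was most like Rprd1a (0.97), Clic1 (0.96), Loxl4 (0.96), Lrit1 (0.96) and Pde7b (0.96).

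A CCAAT box stood in 32 of the 61 member promoter windows (52.5%), against 37.4% of all windows, and a TATA box in 13.1% against 13.6%. Several windows of 1 gene, some of them overlapping, were counted separately, and no test was made. The nuclear receptor hexamer was in 2 of 6 windows of members lower in WTCR and 2 of 5 of members higher. It was in 16.3% of all windows and 14.8% of member windows, and the 6 and 5 windows are too few to compare with these shares.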
